A study of Homo sapiens with 6 samples.

Results

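Exons longer than 60 nt and under 300 nt that lie between 2 short introns were followed after knockdown of the splicing regulator SFSWAP. Each exon came from a skipped exon event with both flanking introns of at most 300 nt. An event needed 20 or more junction reads in the mean library, with at least 5 reads joining the exon and at least 5 skipping it over all libraries. Of several events of an exon, the one with the most reads was kept. This gave 1844 of the 43287 tested exons, in 809 genes. Cells of the human embryonic kidney line HEK293A-TOA were transfected with 40 nM of a mixture of 2 siRNAs against SFSWAP (siSFSWAP, 3 biological replicates) or with a non-target siRNA (siNT, 3 biological replicates). Cells were otherwise wild-type, received no inhibitor, and were collected 5 days later for sequencing of polyadenylated RNA. The knockdown acted on a whole culture and left part of the SFSWAP RNA.

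Most human introns are long, and the splicing machinery is thought to recognise an exon as a unit between its upstream 3′ splice site and its downstream 5′ splice site, a mode called exon definition. Where introns are short, both splice sites can also be paired across the intron, called intron definition. Short introns with exons of similar GC content are typical of GC-rich, gene-dense parts of the genome, and many retained introns are of this kind. SFSWAP carries SURP domains and a region rich in arginine and serine, and is related to a Drosophila protein that represses splicing of its own transcript. Inclusion is computed from inclusion and skipping junction reads alone, scaled by the effective length of each form. It sets reads that join an exon form against reads that skip it. Reads within a retained intron, or at splice sites used only by another form, are not counted. It is thus not a share of all transcripts, and high inclusion of a form does not mean that this form is used more than overlapping ones.

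The following coding exons show what these exons look like. They are given from GRCh38, 5′ to 3′ on the transcribed strand, with 30 nt of intron on each side. The first group holds the 5 named rises with the largest change that the annotation places within coding sequence, and capitals mark the exon.
ACAA1: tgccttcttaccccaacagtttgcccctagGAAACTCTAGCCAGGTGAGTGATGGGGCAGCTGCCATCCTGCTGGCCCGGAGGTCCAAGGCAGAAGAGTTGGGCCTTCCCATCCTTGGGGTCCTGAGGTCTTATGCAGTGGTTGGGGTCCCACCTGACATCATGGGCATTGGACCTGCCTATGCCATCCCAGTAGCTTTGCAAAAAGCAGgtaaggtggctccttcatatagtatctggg
ATP13A2: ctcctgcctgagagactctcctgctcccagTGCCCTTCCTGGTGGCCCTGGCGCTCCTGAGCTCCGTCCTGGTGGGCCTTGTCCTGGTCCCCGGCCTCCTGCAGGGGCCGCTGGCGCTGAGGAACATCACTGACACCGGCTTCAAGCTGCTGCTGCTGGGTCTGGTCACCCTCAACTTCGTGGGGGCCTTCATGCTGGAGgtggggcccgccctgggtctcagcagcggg
LAMA5: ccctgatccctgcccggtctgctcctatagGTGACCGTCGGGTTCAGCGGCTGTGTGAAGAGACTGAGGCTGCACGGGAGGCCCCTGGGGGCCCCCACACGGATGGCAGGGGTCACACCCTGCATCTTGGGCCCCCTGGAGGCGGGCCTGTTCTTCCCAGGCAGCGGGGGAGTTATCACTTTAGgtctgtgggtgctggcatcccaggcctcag
WASHC1: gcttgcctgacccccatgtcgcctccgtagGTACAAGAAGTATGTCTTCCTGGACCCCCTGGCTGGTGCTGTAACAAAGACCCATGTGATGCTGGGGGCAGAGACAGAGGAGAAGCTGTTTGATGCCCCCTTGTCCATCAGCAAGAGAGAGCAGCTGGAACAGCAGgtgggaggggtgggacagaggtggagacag
NDOR1: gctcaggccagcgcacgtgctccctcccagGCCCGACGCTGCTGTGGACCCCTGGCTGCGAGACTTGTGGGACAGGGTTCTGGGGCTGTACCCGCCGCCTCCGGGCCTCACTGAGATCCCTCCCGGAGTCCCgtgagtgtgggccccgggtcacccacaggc
These windows lie at chr3:38126132-38126371 (minus strand), chr1:16986433-16986662 (minus), chr20:62310389-62310602 (minus), chr9:17314-17509 (minus) and chr9:137213937-137214098 (plus). In each, the exon follows AG and is followed by GT. Exon GC content was 57.8% in ACAA1, 67.1% in ATP13A2, 66.9% in LAMA5, 54.4% in WASHC1 and 70.6% in NDOR1. Pyrimidines made up 65, 60, 65, 70 and 65% of the 20 nt before them, in the same order. None of the named falls was wholly coding in the annotation. The other windows hold overlapping forms of 1 exon, of INPPL1, which rose, and of HES4, which fell, and both were chosen after their values were seen. Capitals mark the annotated coding exon.
INPPL1: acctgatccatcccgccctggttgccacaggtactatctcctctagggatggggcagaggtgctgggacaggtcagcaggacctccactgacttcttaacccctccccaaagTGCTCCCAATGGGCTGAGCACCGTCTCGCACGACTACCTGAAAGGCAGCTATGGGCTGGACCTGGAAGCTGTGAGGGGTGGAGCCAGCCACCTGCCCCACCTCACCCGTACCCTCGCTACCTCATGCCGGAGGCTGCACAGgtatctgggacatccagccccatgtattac
HES4: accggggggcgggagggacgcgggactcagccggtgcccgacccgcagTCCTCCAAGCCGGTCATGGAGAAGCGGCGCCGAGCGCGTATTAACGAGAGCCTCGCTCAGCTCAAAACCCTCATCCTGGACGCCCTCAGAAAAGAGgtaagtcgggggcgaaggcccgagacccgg
The INPPL1 window (chr11:72228978-72229260, plus strand) holds a form that starts 82 nt before the annotated 141-nt exon, so that the last 82 bases before the capitals are exon in that form and intron in the annotated one. The HES4 window (chr1:999662-999835, minus strand) holds a form that starts 18 nt before the annotated 96-nt exon.

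The skipped exon table held between 19515010 and 31980079 junction reads per siSFSWAP library and between 20820210 and 55274283 per siNT library, a read being counted once for each event it serves. The deepest was siNT a. SFSWAP itself had 30.3 ± 7.71 CPM (spliced reads scaled to the library total) in siSFSWAP and 82.3 ± 3.79 CPM in siNT (SD, n = 3 each). On the log2 scale the difference was −1.46 ± 0.16 (SE; adjusted p 0.000337 by limma), with no overlap between groups. Of the line's markers, LIN28B and L1CAM were read in every library, at 7.68 to 12.6 CPM and 1.99 to 4.69 CPM. PAX2 and NEFM, which the line is known to express, and the blood and liver markers PTPRC, CD3E, HBB and ALB were not in the table, which lists genes with a skipping event alone and so says nothing of their level. The exons described here had a median of 170, 112 and 117 reads in siSFSWAP a, b and c, and of 255, 108 and 87 in siNT a, b and c.

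The exons had a median length of 122 nt, with a median of 154 nt for the upstream and 152 nt for the downstream intron. The shortest intron was 41 nt. Both introns had the usual GT and AG ends for 95.1% of the exons. Many exons overlapped. Forms with another 5′ or 3′ splice site count as separate exons while sharing their skipping reads, and the 1844 exons fell into 1097 stretches of sequence, of which 1212 exons shared a stretch with another. Exons of a stretch are not independent of each other. GENCODE release 44 held 1113 of them (60.4%), of which 963 lay within coding sequence, 80 in coding sequence and a UTR, 8 in a 5′ UTR, 10 in a 3′ UTR and 52 in noncoding transcripts. Of the 731 others, 454 shared an annotated 5′ splice site and 190 an annotated 3′ splice site.

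In siSFSWAP, 107 exons in 64 genes were included more, and 11 exons in 9 genes less. A call needed an adjusted p of at most 0.05 in a quasi-binomial F test on the reads of each library and a difference of at least 20 percentage points. Thus 5.80% of the exons were called higher, where 1.31% of all tested exons were, and 0.597% were called lower, where 0.698% of all tested exons were. By the adjusted p alone, 188 rose and 40 fell. The groups did not overlap for 513 exons that were higher in each siSFSWAP library (27.8%) and 111 that were lower (6.02%). These shares were 13.7% and 9.42% of all tested exons. The median exon changed by 2.19 points, against 0.242 points over all tested exons. The exons called higher fell into 68 stretches and those called lower into 8.

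Every library moved the number of rises. Without siSFSWAP a, b or c, 17, 44 and 48 exons were called higher. Without siNT a it was 219, without siNT b 33 and without siNT c 40. The share in these fits ran from 0.996% to 13.4%, beside 0.351% and 3.40% of all tested exons in the same fits. Of the 107 rises, 11 exons in 8 genes kept their call in all 6 such fits, namely forms of INPPL1, IRF7, NME4, SPNS1, MICALL1, IMPDH2, WASHC1 and IDH3G. The falls numbered 11, 11 and 6 without siSFSWAP a, b and c, and 6, 10 and 15 without siNT a, b and c. Of the 11 falls, 4 kept their call, in GRAMD1A, CBX6 and SNHG6. Limma on the log2 odds of inclusion, which takes no account of depth, called 9 of these exons higher and 1 lower, and at an unadjusted p under 0.05 it had 502 higher and 91 lower. With the dispersion of each exon taken alone, from 6 libraries, neither direction had a call, and at an unadjusted p under 0.05 that test had 181 higher and 53 lower.

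The next question was how the libraries differed over all exons with room to move, those with a mean inclusion between 10 and 90% over the 6 libraries. The median over these 564 exons was 88.5, 85.7 and 83.6% in siSFSWAP a, b and c, against 83.2, 70.1 and 63.5% in siNT a, b and c. Every siSFSWAP library was above every siNT library, but siNT a lay just below siSFSWAP c. The group means differed by 13.6 points, with an exact two-sided permutation p of 0.1, the smallest that 3 against 3 allows. On the scale of log2 odds the groups overlapped, with a median of 2.242 in siNT a and 2.232 in siSFSWAP c. The exact two-sided permutation p was 0.2 on that scale. The spread within siNT was wide. In siNT a, 88.7% of these exons were above the mean of siNT b and c, by a median of 14.4 points, and all 107 exons called higher were. In siSFSWAP a, the median exon was 3.14 points above the mean of siSFSWAP b and c. The median of the exons called lower was 66.9, 60.5 and 48.7% in siSFSWAP a, b and c, against 92.6, 92 and 92.2% in siNT a, b and c. In HES4, NME3, COPS6 and ENSG00000271793 siNT a was the highest siNT library, and 5 of the 11 falls kept their call without siNT a. Skipping reads made up 9.99, 10.3 and 10.04% of all reads over the 1844 exons in siSFSWAP a, b and c, and 10.8, 12.3 and 12.7% in siNT a, b and c, with inclusion reads halved since they cross 2 junctions. siNT a was also the deepest library, and the part of depth in its higher inclusion was not tested.

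These exons were then set against 25980 exons of the same lengths between 2 introns above 300 nt. Of those, 0.647% were called higher and 0.45% lower. With 1 short intron, 2.86% and 0.788% of 7618 exons were. Of the 564 exons between 2 short introns with a mean inclusion of 10 to 90%, 19% were called higher and 1.95% lower, against 2.94% and 2.05% of 5715 exons between long introns. Between long introns, the median inclusion was 74.7, 72.3 and 71.2% in siSFSWAP a, b and c, against 74.7, 69.8 and 68.7% in siNT a, b and c, a difference of 1.67 points (exact permutation p 0.4). The median log2 odds of the exons between short introns minus that of the exons between long introns was 1.30, 1.18 and 1.00 in siSFSWAP a, b and c, against 0.71, 0.02 and −0.30 in siNT a, b and c. This difference between both classes was thus 1.02 larger in siSFSWAP on the log2 scale, and no siNT library reached a siSFSWAP library (exact two-sided permutation p 0.1, the smallest possible here). Its range over the fits that each leave out 1 library was 0.79 to 1.30. An exon can have events of more than 1 kind, and 181 of the exons between short introns also had an event with a longer intron.

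**Figure D1:**
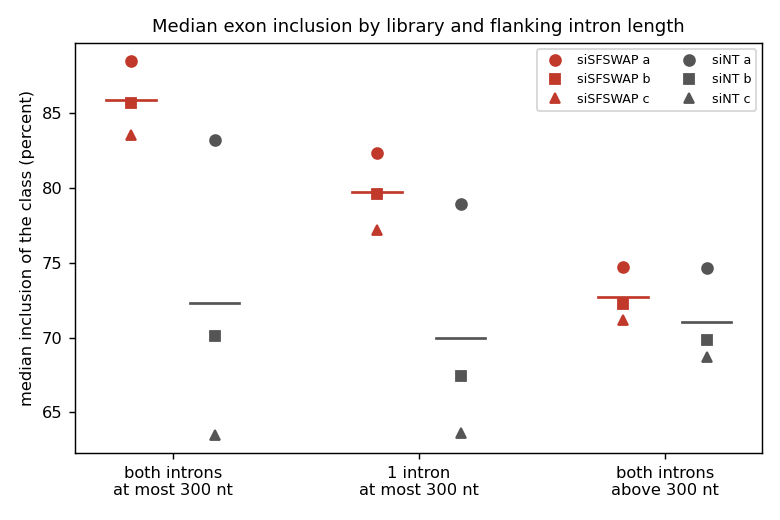
Median inclusion in percent over exons of 10 to 90% mean inclusion, by library, for 564 exons between 2 introns of at most 300 nt, 1882 exons with 1 such intron and 5715 exons between 2 introns above 300 nt. Red symbols are siSFSWAP and grey symbols siNT libraries, lines are means (n = 3), and the axis does not start at 0. Between short introns the siSFSWAP medians lie at 83.6 to 88.5% and the siNT medians at 63.5 to 83.2%.

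The share called did not step at the limit of 300 nt. With 1 event kept per exon over the whole table and a mean inclusion of 10 to 90%, 19.3% of 135 exons were called higher where the longer intron was 251 to 300 nt, and 19.8% of 131 where it was 301 to 350 nt. Below that, from introns of up to 100 nt, the share was between 18.6% and 20.2%. It was lower for each longer class, at 12.6% for 351 to 500 nt, 9.08% for up to 1000 nt, 7.0% for up to 2000 nt, 3.95% for up to 5000 nt and 1.22% above that. The median change followed, at 15.5 points for 101 to 150 nt and 0.266 points above 5000 nt. The share called lower lay between 0.787% and 5.71% without such an order, and the highest of these rests on 2 of 35 exons. By exon length, 4.72% of 212 exons of 31 to 60 nt between short introns, just under the limit, were called higher, and 3.72% of 430 exons of 61 to 90 nt. These shares are descriptions over exons and were not tested.

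**Figure D2:**
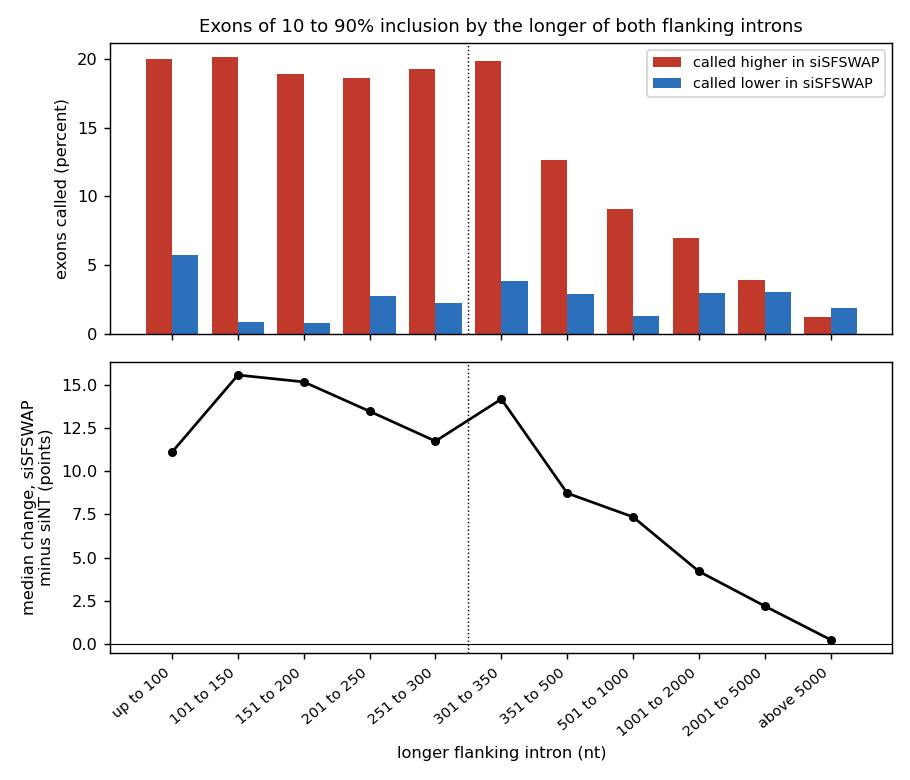
Exons of 10 to 90% mean inclusion by the longer of both flanking introns, in nt. Bars in the upper panel give the percent called higher (red) and lower (blue) in siSFSWAP, the line in the lower panel gives the median difference of siSFSWAP minus siNT in percentage points, and the dotted line marks 300 nt. The share called higher is 20.2% at 101 to 150 nt and 1.22% above 5000 nt.

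By their medians, rises were richer in GC than falls. This is a description over exons, which share libraries and in part reads, and it was not tested. The median exon called higher had 63.5% GC, with 64.1% in its upstream and 63% in its downstream intron. Exons called lower had 55.6, 56.2 and 52.1%, and uncalled exons 58.5, 60.2 and 59.2%. The named falls were not alike. Exon GC was 68.0, 65.5 and 63.2% in NME3, CBX6 and HES4, and 57.5% in GRAMD1A. It was 35.5, 42.3 and 43.6% in SNHG6, COPS6 and ENSG00000271793. Upstream intron GC in NME3, CBX6 and HES4 was 80.7, 86.1 and 83.3%, above every named rise, of which MICALL1 was highest at 73%. Among the 564 exons of 10 to 90% inclusion, 66 rose and 3 fell of 314 with at least 60% exon GC, and 3 rose and 5 fell of 47 with under 50%. In the GC-rich exons the median inclusion was 88.7, 86.5 and 83.6% in siSFSWAP a, b and c, against 82.2, 69.96 and 61.9% in siNT a, b and c. In the GC-poor exons it was 84.3, 79.7 and 76.9% in siSFSWAP a, b and c, against 86.7, 78.2 and 70.6% in siNT a, b and c, and the groups overlapped. The median change was −13.6 points in 7 exons of up to 40% GC, −6.69 in 14 exons of 40 to 45%, 5.55 in 35 exons of 45 to 50% and between 12 and 16.3 above 50%. Between 2 long introns the median change also differed with GC, at −2.72 points at up to 40% GC (921 exons) and 8.22 points at 65 to 70% (281 exons). At 55 to 60% exon GC, 18.8% of 138 exons between short introns were called higher, against 14% of 407 with 1 short intron and 5.23% of 898 between long introns. At 60 to 65% GC of the introns, these shares were closer, at 19.7% of 147, 19% of 231 and 11.8% of 212, in the same order. Over whole classes, the median exon GC was 58.8% between short introns and 48.6% between long ones.

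**Figure D3:**
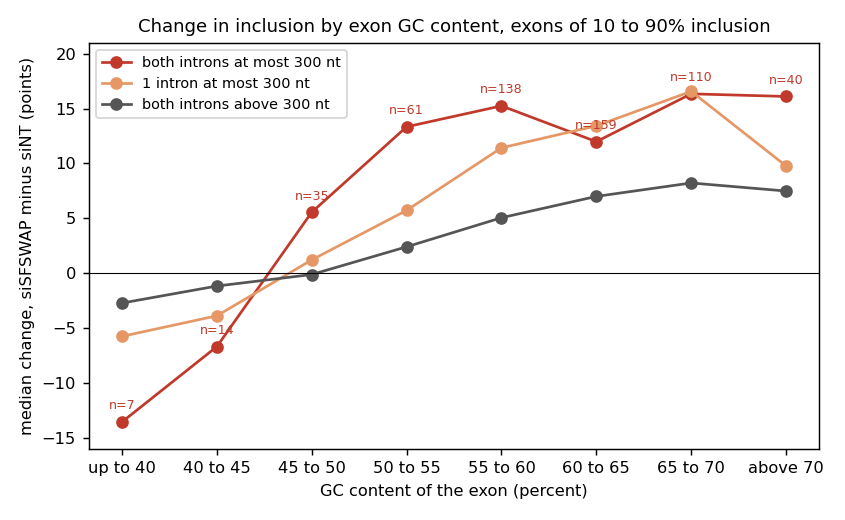
Median difference in inclusion, siSFSWAP minus siNT in percentage points, by GC content of the exon, for exons of 10 to 90% mean inclusion. Red points are exons between 2 introns of at most 300 nt with their number, orange points exons with 1 such intron and grey points exons between 2 introns above 300 nt. The red points lie at −13.6 points up to 40% GC and at 16.3 points for 65 to 70%.

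Among rises, falls and uncalled exons, those called higher also had the highest median of GGG in their introns and the largest share with a length divisible by 3. These features are descriptions with no test. Runs of GGG on the transcribed strand, which hnRNP H family proteins are known to bind, numbered 5.79 per 100 nt of flanking intron for exons called higher, 3.02 for those called lower and 4.35 for uncalled exons (medians, overlapping runs counted, sense strand only). The median was 4.43 over all the exons between short introns and 1.38 for those between long introns. Rises also had a higher median than falls with 1 short intron (3.86 against 1.22) and between long introns (2.75 against 1.13). The named falls varied widely, from 0.261 in ENSG00000271793 to 13.4 in NME3. Those in NME3, HES4 and CBX6 had 13.4, 13.0 and 11.4, above every named rise, of which SAT2 was highest at 10.2. Pyrimidines made up 60% of the 20 nt before the median exon called higher or lower, and 65% before uncalled exons. The length was divisible by 3 in 52 of 107 exons called higher (48.6%), 4 of 11 called lower and 663 of 1726 uncalled (38.4%). Among uncalled exons low enough in siNT to rise by 20 points, it was 194 of 468 (41.5%). Skipping such a length keeps the reading frame only within coding sequence, where the annotation placed 45 of the rises and 1 of the falls. Exons called higher had a median inclusion of 91.8% in siSFSWAP and 61.9% in siNT, and those called lower 60.3% in siSFSWAP and 92.2% in siNT. Of the rises, 56 of 107 were of exon forms outside the annotation, as were 7 of 11 falls.

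The named rises, of which the first 15 by size were taken with no more than 1 exon a gene, groups that did not overlap and on average 50 reads or more in a library, are given here by what their genes are known to do, an order of description and not a result. Enzymes come first. ACAA1 encodes a peroxisomal thiolase of fatty acid β-oxidation. Its exon 9 of 12 (180 nt, chr3:38126162-38126341, minus strand, introns of 168 and 280 nt) had 92.7, 86.7 and 100% inclusion in siSFSWAP a, b and c, against 75.2, 35.7 and 30.9% in siNT a, b and c. ACAA1 averaged 93.1 ± 6.68% in siSFSWAP and 47.3 ± 24.3% in siNT (SD, n = 3 each), a rise of 45.8 points (adjusted p 0.00505). SAT2 encodes an acetyltransferase of the spermidine/spermine family. A 72-nt form that uses an annotated 5′ splice site (chr17:7627363-7627434, minus strand) had 98, 96.3 and 83.3% inclusion in siSFSWAP a, b and c, against 75.9, 40.6 and 33.6% in siNT a, b and c. SAT2 rose by 42.5 points (adjusted p 0.00263). The widest spread in both genes was within siNT, where siNT a was the highest. NME4 encodes a nucleoside diphosphate kinase of mitochondria. Its 186-nt form (chr16:399295-399480, plus strand) had 97.4, 94.8 and 97.7% inclusion in siSFSWAP a, b and c, against 78.1, 52.7 and 48.7% in siNT a, b and c, a rise of 36.8 points (adjusted p 8.16e-05). The annotated 102-nt coding form of NME4 with the same 5′ splice site rose by 22.6 points (adjusted p 9.12e-05), and by 18.1 points without siNT c. MAN2C1, a cytosolic α-mannosidase, had a 112-nt form (chr15:75358507-75358618, minus strand) with 100, 100 and 100% inclusion in siSFSWAP a, b and c, against 90.5, 46.7 and 58.8% in siNT a, b and c. No skipping read of MAN2C1 was seen in siSFSWAP beside 66, 48 and 62 inclusion reads, and siNT had 4, 16 and 7 skipping reads (adjusted p 0.00450). With the siSFSWAP reads added up, a count of 0 allows up to 3 skipping reads and so an inclusion down to 96.7%, for counting error alone. Every other inclusion of 100% given here likewise means that no skipping read was seen in that library. The other called forms of MAN2C1 and forms called higher in SLC12A4, PLD2 and KIAA0100 also had no skipping read in siSFSWAP. They too met the minimum of skipping reads through siNT alone. The call of the 186-nt form of NME4 held without any 1 library. Leaving out siSFSWAP a gave an adjusted p of 0.0973 for ACAA1, 0.106 for SAT2 and 0.0745 for MAN2C1. Leaving out siSFSWAP c gave an adjusted p of 0.0821 for ACAA1 and 0.0618 for MAN2C1. Leaving out siNT b gave an adjusted p of 0.0780 for ACAA1, 0.0615 for SAT2 and 0.0703 for MAN2C1.

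The next named rises are in genes with roles at the proteasome and at membranes. ADRM1 encodes a ubiquitin receptor of the proteasome and had the most reads among the named rises, with a mean of 888 per library. Its 81-nt form (chr20:62308390-62308470, plus strand) had 77.1, 69.9 and 73.4% inclusion in siSFSWAP a, b and c, against 55, 24.5 and 21.6% in siNT a, b and c, a rise of 39.7 points (adjusted p 0.000534). The annotated 103-nt coding form of ADRM1 rose by 39.2 points (adjusted p 0.000373, and 0.0630 without siSFSWAP a). ATP13A2 is a lysosomal polyamine transporter. Its exon 28 of 29 (170 nt, chr1:16986463-16986632, minus strand, introns of 172 and 104 nt) had 94.7, 89.5 and 91.7% inclusion in siSFSWAP a, b and c, against 64.9, 62.2 and 40% in siNT a, b and c. ATP13A2 averaged 91.9 ± 2.61% in siSFSWAP and 55.7 ± 13.7% in siNT (SD, n = 3 each, adjusted p 0.00383). AUP1, a protein of lipid droplets and of the endoplasmic reticulum degradation pathway, had a 237-nt form (chr2:74528253-74528489, minus strand) with 82.7, 78.8 and 81% inclusion in siSFSWAP a, b and c, against 58, 43.7 and 36.8% in siNT a, b and c. AUP1 rose by 34.6 points (adjusted p 0.00191). MICALL1 acts in endocytic recycling. Its 109-nt form (chr22:37932780-37932888, plus strand) had 92.2, 92 and 100% inclusion in siSFSWAP a, b and c, against 73.7, 62.4 and 49.2% in siNT a, b and c, a rise of 33 points (adjusted p 0.00224). WASHC1 encodes a subunit of the WASH complex, which drives actin assembly on endosomes. Its exon 6 of 11 (136 nt, chr9:17344-17479, minus strand) was mostly skipped, with 39.4, 53.5 and 36.4% inclusion in siSFSWAP a, b and c, against 13.9, 7.34 and 7.98% in siNT a, b and c. WASHC1 rose by 33.4 points (adjusted p 0.000151), but the gene has near-identical copies near other chromosome ends, between which reads can be split, so this value is uncertain. The calls of MICALL1 and WASHC1 held without any 1 library. Leaving out siSFSWAP a gave an adjusted p of 0.0746 for ADRM1, 0.0515 for ATP13A2 and 0.0518 for AUP1.

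The other named rises are in genes of mixed roles. INPPL1, the phosphatidylinositol phosphatase SHIP2, rose by 36 points in a 97-nt form described further on. E4F1 encodes a zinc finger transcription factor. Its 214-nt form (chr16:2233438-2233651, plus strand) had 87.7, 89.3 and 78.6% inclusion in siSFSWAP a, b and c, against 70.3, 36.4 and 39.3% in siNT a, b and c, and the rise was 36.6 points (adjusted p 0.00753). LAMA5 encodes a laminin chain of basement membranes. Its exon 76 of 80 (154 nt, chr20:62310419-62310572, minus strand, introns of 92 and 107 nt) had 90, 90.6 and 90.2% inclusion in siSFSWAP a, b and c, against 74.5, 52 and 38.9% in siNT a, b and c. LAMA5 averaged 90.3 ± 0.296% in siSFSWAP and 55.1 ± 18% in siNT (SD, n = 3 each, adjusted p 0.0113), so that nearly all spread was within siNT. PCNX3, a membrane protein, had a 100-nt form (chr11:65617611-65617710, plus strand) with 100, 85.4 and 88.2% inclusion in siSFSWAP a, b and c, against 74, 59.4 and 31.7% in siNT a, b and c (adjusted p 0.0175). TMEM141, another membrane protein, had an 88-nt form (chr9:136791947-136792034, plus strand) with 89.7, 88.7 and 80.7% inclusion in siSFSWAP a, b and c, against 70.03, 45.3 and 46.2% in siNT a, b and c (adjusted p 0.00236). NDOR1 rose by 32.7 points in its exon 5. The largest rise of all was below the read minimum for naming and was picked after its value was seen, in a coding exon of IRF7, an interferon regulatory factor. This 226-nt exon (chr11:614174-614399, minus strand) had 84.8, 88 and 95.2% inclusion in siSFSWAP a, b and c, against 45.9, 25.7 and 23.1% in siNT a, b and c, a rise of 57.8 points (adjusted p 0.000216). Leaving out siSFSWAP a gave an adjusted p of 0.115 for E4F1, 0.278 for PCNX3, 0.0821 for LAMA5 and 0.0947 for TMEM141. Leaving out siSFSWAP b gave an adjusted p of 0.0660 for E4F1, 0.0514 for PCNX3 and 0.0662 for LAMA5. Leaving out siSFSWAP c gave an adjusted p of 0.0794 for PCNX3 and 0.0737 for LAMA5. Leaving out siNT b gave an adjusted p of 0.110 for E4F1, 0.0920 for PCNX3 and 0.0904 for LAMA5. Leaving out siNT c gave an adjusted p of 0.0558 for PCNX3 and 0.0503 for LAMA5.

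Fewer exons fell. The 7 named falls had groups that did not overlap, and the exons of GRAMD1A, NME3, CBX6 and SNHG6 were nearly always included in siNT. GRAMD1A encodes a protein that moves cholesterol at membrane contacts. Its 179-nt form with an annotated 3′ splice site (chr19:35009423-35009601, plus strand, introns of 93 and 286 nt) had 43.9, 57.6 and 43.5% inclusion in siSFSWAP a, b and c, against 93.2, 90 and 93.5% in siNT a, b and c. GRAMD1A averaged 48.4 ± 8.05% in siSFSWAP and 92.2 ± 1.95% in siNT (SD, n = 3 each), a fall of 43.9 points (adjusted p 0.000136). NME3 encodes a nucleoside diphosphate kinase, as NME4 does, and moved the other way. The 122-nt exon (chr16:1771070-1771191, minus strand, exon 3 of 5, coding sequence and UTR) had 64.4, 58.2 and 54.8% inclusion in siSFSWAP a, b and c, against 100, 92 and 84% in siNT a, b and c (adjusted p 0.00338). CBX6 encodes a chromobox subunit of Polycomb complexes. Its 119-nt form (chr22:38871902-38872020, minus strand) had 76.2, 60.5 and 56.5% inclusion in siSFSWAP a, b and c, against 94.2, 97.5 and 94% in siNT a, b and c, a fall of 30.8 points (adjusted p 0.000532). SNHG6 is a host gene of small nucleolar RNAs. A 62-nt exon, exon 3 of 4 (chromosome 8), had 74.7, 68.5 and 69.3% inclusion in siSFSWAP a, b and c, against 92.1, 97.8 and 92.2% in siNT a, b and c (adjusted p 6.18e-05). The SNHG6 exon was also the poorest in GC among the named exons, at 35.5%. COPS6 encodes a subunit of the COP9 signalosome. Its 123-nt form (chr7:100090827-100090949, plus strand, 42.3% GC) had 63.1, 58.7 and 48.7% inclusion in siSFSWAP a, b and c, against 84.7, 79.3 and 76.1% in siNT a, b and c (adjusted p 0.000198). A 78-nt form in ENSG00000271793 (chr6:85677791-85677868, minus strand), a readthrough gene in the annotation that overlaps SNHG5, another host of small nucleolar RNAs, had 5.0, 7.21 and 3.03% inclusion in siSFSWAP a, b and c, against 39.6, 29.1 and 11.3% in siNT a, b and c (adjusted p 0.000305). The reads of that form cannot be assigned to 1 of these genes. Leaving out siNT a gave NME3 an adjusted p of 0.0584 and took the change to −15.1 points in ENSG00000271793, and leaving out siSFSWAP c took that of COPS6 to −19.2 points. GALT and ENSG00000258728 share reads of 1 overlapping stretch, where a form was called lower in each, by 39.7 points in GALT and 36.9 points in ENSG00000258728, at a mean of 21.8 and 20.3 reads per library. Without siSFSWAP c the adjusted p was 0.0646 for GALT and 0.0708 for ENSG00000258728, and without siNT b it was 0.0525 for ENSG00000258728. Too few reads were left to test either without siNT a, or ENSG00000258728 without siSFSWAP a.

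**Figure D4:**
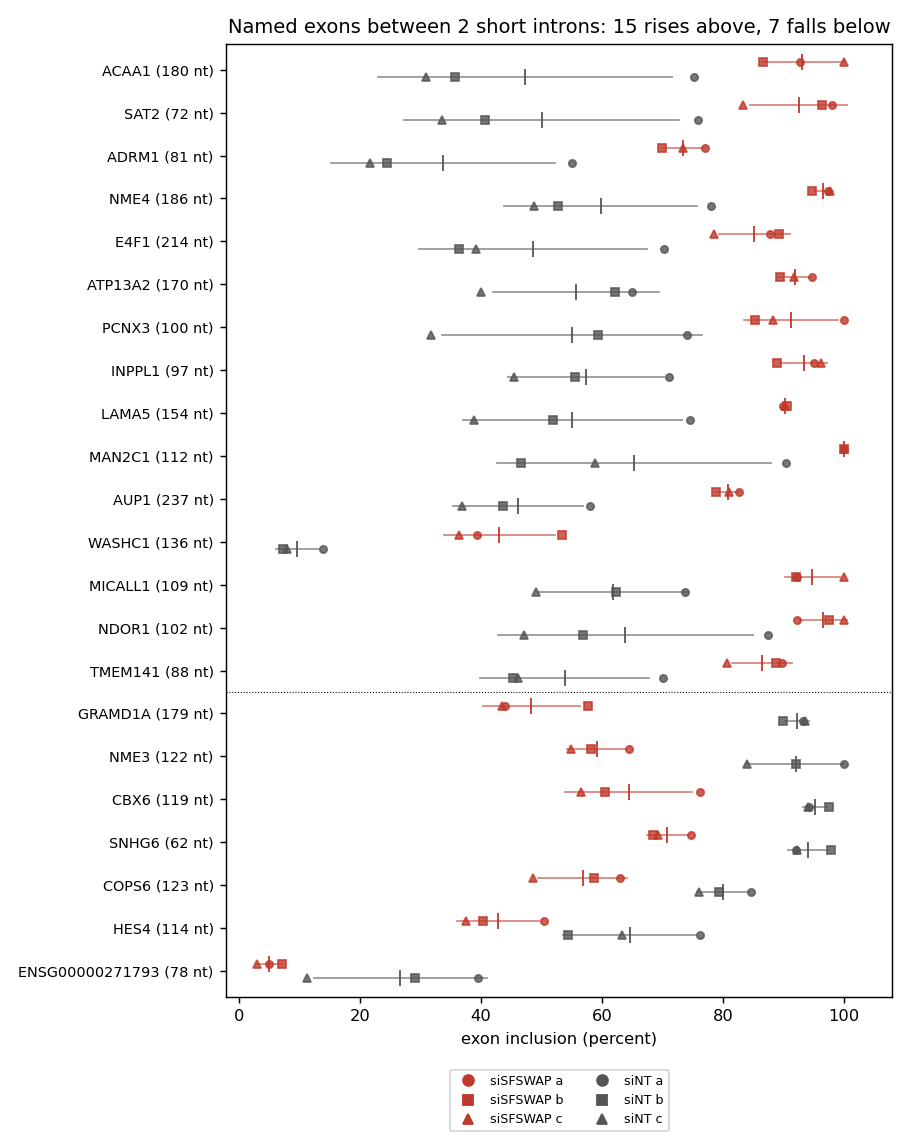
Inclusion in percent of the 15 named rises and 7 named falls among exons between 2 short introns. Red symbols are siSFSWAP and grey symbols siNT libraries a, b and c, vertical marks are means and lines SD (n = 3). The rises other than WASHC1 lie at the right in siSFSWAP with a wide spread in siNT. WASHC1 lies at 43.1% in siSFSWAP and 9.73% in siNT, and GRAMD1A lies at 48.4% in siSFSWAP and 92.2% in siNT.

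HES4, a basic helix-loop-helix repressor, had 6 exons between short introns, in overlapping forms of 2 stretches. Its 114-nt form (chr1:999692-999805, minus strand) had 50.4, 40.4 and 37.6% inclusion in siSFSWAP a, b and c, against 76.2, 54.3 and 63.3% in siNT a, b and c, a fall of 21.8 points (adjusted p 0.000978). The annotated 96-nt coding form, whose bases are the capitals of the HES4 sequence, had 74.5, 67.6 and 67.2% inclusion in siSFSWAP a, b and c, against 89.7, 77.3 and 81.5% in siNT a, b and c, a difference of −13.1 points (adjusted p 0.00155) that is short of the 20 points of a call. These forms share their skipping reads. The other stretch had no call. Its forms of 88, 122, 81 and 115 nt averaged 2.03, 3.18, 4.81 and 21.4 points higher in siSFSWAP, with groups that overlapped (adjusted p 0.240, 0.201, 0.312 and 0.369). Without siSFSWAP c the change of the 114-nt form was −19.2 points, and without siNT a it was −16 points.

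In 10 genes at least 3 exons were called, and the 3 with the most were NDOR1, INPPL1 and NT5C. INPPL1 (ENSG00000165458.15) had 10 exons between short introns. The annotated exon 5 of 28 (141 nt, chr11:72229090-72229230, plus strand) had 97.3, 93.4 and 97.8% inclusion in siSFSWAP a, b and c, against 82.8, 69.4 and 59.5% in siNT a, b and c, a rise of 25.6 points (adjusted p 0.00126). The forms of 223, 207 and 97 nt end at the same 5′ splice site and begin at other 3′ splice sites, and rose by 35.2, 34.5 and 36 points (adjusted p 0.00118, 0.00145 and 0.000718). These 4 calls held without any 1 library. Exon 7 of INPPL1 (90 nt, chr11:72229663-72229752, plus strand) went the other way, with 86.2, 81.5 and 76% inclusion in siSFSWAP a, b and c, against 97.8, 91.7 and 95.7% in siNT a, b and c, a difference of −13.8 points (adjusted p 0.00294, not called). Near the 3′ end, a 210-nt form of exon 27 rose by 26.1 points (adjusted p 0.0222), while the annotated 134-nt form differed by 17.7 points (adjusted p 0.0133, not called), and by 21.4 points, a call, without siNT a. The call of the 210-nt form was lost without any 1 library other than siNT a, with adjusted p between 0.0775 and 0.133. Exon 24 of INPPL1 (79 nt) was near full inclusion in both groups, at 99.5 ± 0.126% in siSFSWAP and 98.5 ± 0.80% in siNT (SD, n = 3 each, adjusted p 0.394). Exons and forms of INPPL1 thus differed in the size of their change, and exon 7, which was not called, differed in direction.

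NDOR1 encodes a diflavin reductase of cytosolic iron-sulfur protein assembly. Its exon 5 of 14 (ENSG00000188566.15, 102 nt, chr9:137213967-137214068, plus strand, introns of 88 and 135 nt) had 92.2, 97.6 and 100% inclusion in siSFSWAP a, b and c, against 87.5, 56.9 and 47.2% in siNT a, b and c. NDOR1 exon 5 averaged 96.6 ± 3.97% in siSFSWAP and 63.9 ± 21% in siNT (SD, n = 3 each), a rise of 32.7 points (adjusted p 0.0105). A 126-nt form with the same 5′ splice site rose by 52.4 points (adjusted p 0.00917) on a mean of 23 reads per library. Exon 10 was called in 4 overlapping forms of 94, 115, 210 and 225 nt, which rose by 41.1, 29.8, 40.5 and 41.5 points. The annotated 115-nt form (chr9:137215407-137215521, plus strand) had 100, 100 and 89.2% inclusion in siSFSWAP a, b and c, against 82, 60 and 57.7% in siNT a, b and c (adjusted p 0.0197). Exons 12 and 13, in forms of 73, 95 and 122 nt, differed by −5.38, −3.87 and −3.61 points and were not called (adjusted p 0.368, 0.471 and 0.881). None of the 6 calls of NDOR1 held without every 1 library. The adjusted p of exon 5 was between 0.0547 and 0.111 without siSFSWAP a, b or c or siNT b or c, that of the 126-nt form between 0.0548 and 0.0969 without siSFSWAP b or c or siNT b or c, and those of the exon 10 forms between 0.0583 and 0.187 without siSFSWAP a or b or siNT b or c.

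NT5C encodes a cytosolic nucleotidase that acts on deoxyribonucleotides. Its 5 called exons are forms of 1 stretch and share their skipping reads. The 61-nt coding form (chr17:75131045-75131105, minus strand) had 95.3, 93.9 and 88.9% inclusion in siSFSWAP a, b and c, against 86, 66.3 and 44.8% in siNT a, b and c, a rise of 27 points (adjusted p 0.0492). The forms of 63, 117, 134 and 141 nt rose by 40.3, 40.1, 40.2 and 34.9 points (adjusted p 0.0424, 0.0350, 0.0417 and 0.0433). In each form siNT c was lowest and siNT a highest of siNT. The neighbouring exon 4 (115 nt) was at 99.7 ± 0.537% in siSFSWAP and 98.9 ± 1.97% in siNT (SD, n = 3 each, adjusted p 0.492). Each NT5C call ended without any 1 library other than siNT a, with adjusted p between 0.0771 and 0.299.

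**Figure D5:**
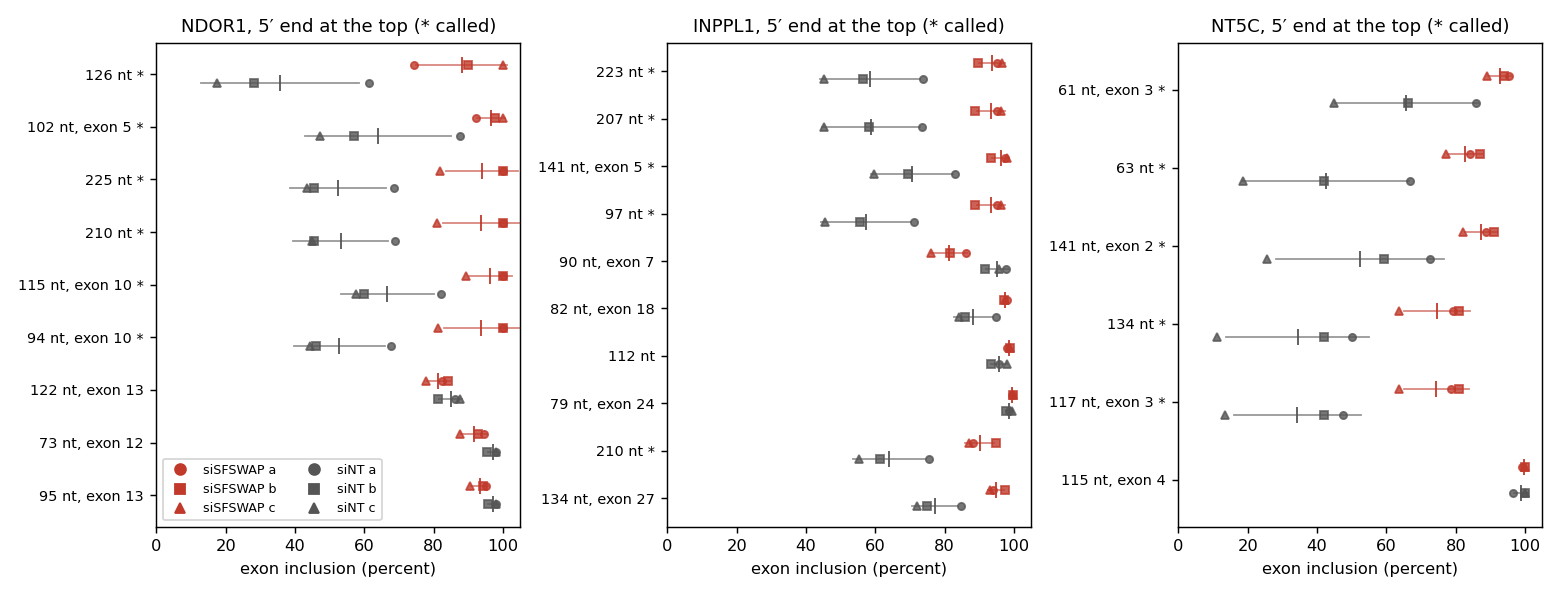
Inclusion in percent of every exon between 2 short introns in NDOR1, INPPL1 and NT5C, from the 5′ end at the top, with the length of each form and, where annotated, its exon number in its own transcript. Red symbols are siSFSWAP and grey symbols siNT libraries, vertical marks are means, lines SD (n = 3), and stars mark calls. Called forms lie apart, with siSFSWAP to the right, while for exons 12 and 13 of NDOR1 both groups lie close together and for exon 4 of NT5C near full inclusion.

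The flanking introns were then looked up in the retained intron table, in which retention gives the portion of transcripts with the intron still in place. Its spliced reads are in part the inclusion reads of the exon, while reads across the intron boundary are its own. Of 2871 flanking introns, 1440 were listed and 1021 were tested. In siSFSWAP, 38 were called lower and 0 higher by the quasi-binomial F test. This is 3.72% lower, beside 1.61% of all tested introns and 1.83% of all tested introns of at most 300 nt. Called higher were 0.148% of all tested introns and 0.053% of those of at most 300 nt. At an unadjusted p under 0.05, 252 flanking introns were lower and 13 higher, and with limma, which called none, 241 lower and 13 higher. The median flanking intron was retained at 7.44% in siSFSWAP and 11.2% in siNT. Next to exons called higher, 59 of 62 tested introns were less retained on average (95.2%), and 761 of 973 next to uncalled exons (78.2%), beside 61.2% of all tested introns. Next to exons called lower it was 4 of 12. Exons were called by inclusion reads that are in part the spliced reads of these introns. The contrast between called and uncalled exons is therefore set in part by that choice. Without siSFSWAP a, b or c, 3, 14 and 5 flanking introns were called lower, without siNT a 119, without siNT b 6 and without siNT c 23.

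Of 79 exons called higher with a tested flanking intron, 11 in 5 genes had one called lower. Overlapping forms share introns, and with each intron counted once these were 6 of 62 (9.68%). Next to uncalled exons, 32 of 973 introns were called lower (3.29%), and the shared reads set part of this contrast too. Around exon 5 of NDOR1 both introns were. The downstream intron (135 nt, chr9:137214069-137214203) had 31.3, 29.4 and 21.4% retention in siSFSWAP a, b and c, against 61.8, 78 and 81.8% in siNT a, b and c, a fall of 46.5 points (adjusted p 0.00523). The upstream intron (88 nt) had 6.85, 10.7 and 12.8% retention in siSFSWAP a, b and c, against 27.1, 55.7 and 64.1% in siNT a, b and c, a fall of 38.8 points (adjusted p 0.00728). So in NDOR1 inclusion of the exon among spliced reads was higher and retention of both introns lower in siSFSWAP. These results are not independent, since they share spliced reads. Transcripts that retain both introns also hold the exon but give it no inclusion reads. In INPPL1 the intron after exon 5 (234 nt) had 8.50, 17.9 and 8.76% retention in siSFSWAP a, b and c, against 27.6, 42.1 and 45.1% in siNT a, b and c (adjusted p 0.00728). In PCNX3 the intron before the called exon (101 nt) had 16, 23.9 and 22.7% retention in siSFSWAP a, b and c, against 44.2, 51 and 73.7% in siNT a, b and c (adjusted p 0.00728). PPP1R35 encodes a centriole protein, and its flanking intron of 97 nt fell by 23.8 points (adjusted p 0.00870). These calls in NDOR1, INPPL1, PCNX3 and PPP1R35 each ended without siSFSWAP a, without siSFSWAP c and without siNT b, that of the upstream NDOR1 intron also without siSFSWAP b, at adjusted p between 0.0516 and 0.191. An intron could also fall without a called exon. IFRD2 encodes a protein that binds ribosomes and has exon 3 of 12 (85 nt, chr3:50290388-50290472, minus strand) between introns of 87 and 93 nt. This exon had 97.1, 99 and 97.6% inclusion in siSFSWAP a, b and c, against 97.5, 92.6 and 98.5% in siNT a, b and c, so the groups overlapped (adjusted p 0.747), and its other forms of 62 and 97 nt had adjusted p of 0.769 and 0.749. The downstream intron of IFRD2 had 16, 10.9 and 12.7% retention in siSFSWAP a, b and c, against 38.8, 62.4 and 59.9% in siNT a, b and c, a fall of 40.5 points (adjusted p 0.00121), and this call held without any 1 library. Its upstream intron was retained at 7.45 ± 1.31% in siSFSWAP and 36.1 ± 12.1% in siNT (SD, n = 3 each, adjusted p 0.00186, and 0.0569 without siSFSWAP a). So both introns of IFRD2 were retained less while inclusion of the exon, already near its limit, was not called. GFUS, which makes GDP-fucose, has exon 5 of 11 (74 nt, chromosome 8) between short introns, with 96.1, 97.8 and 94% inclusion in siSFSWAP a, b and c, against 88.9, 79.3 and 85.1% in siNT a, b and c. GFUS exon 5 rose past the adjusted p (0.0317) by 11.6 points, short of a call. Without any 1 library other than siNT a, its adjusted p was between 0.0652 and 0.167.

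By the lists of genes used here, 5 of 41 exons of mitochondrial and metabolic enzymes were called higher and 0 lower, among them those of ACAA1, SAT2 and IDH3G, a subunit of isocitrate dehydrogenase. Kinases and signalling genes had 8 of 71 higher and 0 lower, in INPPL1, IRF7, the cell cycle phosphatase CDC25B and PKD1, whose reads can be split with its near-identical pseudogenes. INPPL1 alone gave 5 of these 8 exons, 4 of them overlapping forms of 1 stretch. Chromatin and transcription regulators had 3 of 64 higher, in the histone demethylase KDM6B, the histone methyltransferase KMT2B and PHF1, and 1 lower, in CBX6. DNA repair and replication genes had 2 of 42 higher and 0 lower, in POLG, the mitochondrial DNA polymerase, and the helicase RECQL4. None of the 48 exons on the list of splicing and RNA-binding proteins or of the 28 on the list of lysosome and glycosylation genes was called in either direction. The lysosome list does not hold ATP13A2 or SPNS1, a lysosomal lipid transporter, which both had exons called higher. The median change was 0.563 points in the splicing list and 6.16 points in the lysosome list, beside 2.19 points over all 1844 exons, of which 5.80% were called higher. CDC25B (123 nt, chr20:3800743-3800865, plus strand) had 86.4, 86.6 and 86.4% inclusion in siSFSWAP a, b and c, against 74.6, 62.5 and 48.9% in siNT a, b and c (adjusted p 0.00207, and 0.0762 without siSFSWAP a), and rose by 17.9 points without siNT c. IDH3G (61 nt, chrX:153786212-153786272, minus strand) had 97.1, 97.1 and 96.1% inclusion in siSFSWAP a, b and c, against 79.4, 59.5 and 56.5% in siNT a, b and c (adjusted p 7.05e-05), and its call held without any 1 library. The calls of POLG, PKD1, KMT2B and PHF1 each ended without any 1 library other than siNT a, at adjusted p between 0.0506 for KMT2B and 0.196 for PHF1. That of KDM6B ended without siSFSWAP a, siSFSWAP b or siNT b, at 0.0741 to 0.153, and that of RECQL4 without siSFSWAP a, at 0.0775.

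Of the uncalled exons with a mean inclusion of 20 to 80%, the 5 with the most reads lay in HES4, ERGIC3, BAG6 and PQBP1. ERGIC3 encodes a protein that cycles between endoplasmic reticulum and Golgi. Its annotated 88-nt exon (chr20:35542513-35542600, plus strand) had 74.8, 68.9 and 67.1% inclusion in siSFSWAP a, b and c, against 93.4, 79.5 and 75.1% in siNT a, b and c, a difference of −12.4 points past the adjusted p (0.00603) but not the size of a call. A 99-nt form of it differed by −14.8 points, with groups that overlapped (adjusted p 0.0129). BAG6, a chaperone of newly made membrane proteins, had 35.9, 37.3 and 40.5% inclusion in siSFSWAP a, b and c, against 37.5, 32.3 and 26% in siNT a, b and c in its 108-nt exon 12 of 26 (adjusted p 0.393). PQBP1, a splicing-associated protein, had 86.6, 76.3 and 78.9% inclusion in siSFSWAP a, b and c, against 90.1, 76.5 and 69.1% in siNT a, b and c in a long exon 4 of 6 (adjusted p 0.978). In BAG6 and PQBP1 the groups overlapped.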

How the data were processed

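RNA-seq reads of polyadenylated RNA were trimmed with cutadapt 1.9.1 and aligned with STAR 2.7 to GRCh38 (versions from the submitters' processing notes; GENCODE release 40 per the study's methods), and the authors ran rMATS on all 6 libraries. The deposited tables of skipped exons and retained introns give, per event, whole-number counts of inclusion and skipping junction reads for each library and the effective length of each form. The 4 columns of per-library inclusion levels in both tables, and the authors' p-values, FDR and inclusion differences, were not used. The sources used here do not say whether counting used strand. The table lists hold libraries in a fixed order without names. The first list was taken as siNT from the study's definition of its inclusion difference, and SFSWAP was lower in the other list. Libraries a, b and c follow that order and are not paired between groups.

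Inclusion was computed from counts divided by effective length. Each event with enough reads was tested in a two-sided quasi-binomial F test of siSFSWAP against siNT, with the dispersion moderated over all tested events of a table (limma 3.58.1, R 4.3.3, trend on depth) and at least 1, and p-values adjusted by Benjamini-Hochberg over all tested events. Adjusted p-values in the text are from this test unless limma is named. Library medians were compared by exact two-sided permutation. The test was checked on counts simulated for this comparison with 43278 exon events. Of 200 events given a rise of 35 points, 125 were called, as were 7 unchanged events. The rise was given only to events of low to middle inclusion, and every event was drawn independently in each library. A shift shared by many exons of 1 library, as in siNT a, was not simulated. The check therefore cannot show how many calls such a shift would give. Spliced reads per gene were compared with limma on log2(CPM + 0.5). Exons were placed in GENCODE release 44 (GRCh38), and sequences were read from that genome.

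Named exons were called exons with groups that did not overlap and on average 50 or more reads in a library, the one with the largest change per gene, up to 15 rises and 10 falls, of which 7 qualified. Added to these were all such exons of the 3 genes with the most calls, exons of 6 genes the study followed (those of IFRD2 and GFUS were present, those of OGT, OGA, FN1 and MAPT were not among the exons), and 5 uncalled exons with the most reads. The exons, the gene lists and the tests were chosen with earlier results of these data known. Alternatives left out each library, changed the read minimum, the size of change, the intron limit and the test, kept all events of an exon or annotated exons alone. The deviance-based dispersion and 1 exon per stretch were chosen after seeing the data. Some exons and introns that met these rules are not reported here.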

Additional observations from a re-analysis of the deposited data

How the results depend on the processing

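The number of exons between short introns called higher (107) or lower (11), and of their flanking introns called lower (38), depended on the libraries and on the test. With 1 library left out, 17 to 219 exons were called higher, 6 to 15 lower, and 3 to 119 flanking introns lower, with the fewest rises and introns without siSFSWAP a and the most without siNT a. Limma on log2 odds gave 9 exons higher, 1 lower and 0 introns lower (at an unadjusted p under 0.05: 502 exons higher, 91 lower, and 241 introns lower). The dispersion of each event alone gave 0 exons higher, 0 lower and 0 introns lower (at an unadjusted p under 0.05: 181 and 53 exons, 99 introns). A minimum of 50 reads left 71 rises of 1530 exons. A change of 10 points gave 29 falls and 58 introns. An intron limit of 200 nt gave 54 rises, 4 falls and 22 introns, and 500 nt gave 181 rises and 27 falls, over 903 and 3668 exons. Annotated exons alone had 51 rises and 4 falls, of 1113. The following alternatives were chosen after seeing the data. Taking 1 exon per overlapping stretch gave 46 rises and 4 falls, of 1097, and a dispersion from deviance residuals gave 115 and 11, close to the main counts. Of the 22 named rises and falls, limma put 3 past an adjusted p of 0.05 and 21 past an unadjusted p of 0.05. The library medians and the class difference kept their direction in every alternative run. No paired analysis was possible because the lists of libraries carry no replicate numbers.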
